A study of Mus musculus with 36 samples.

Results

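The testes of D1Pas1 knockout mice were followed from postnatal day 14 (P14) to postnatal day 18 (P18), with 3 RNA-seq libraries at each age. These are the 6 libraries labelled KO at those ages, of 36 samples in the series, which also holds RNA-seq at P28, small RNA, eCLIP and BisMapR samples. Libraries 4, 5 and 6 are knockout at P14 and libraries 10, 11 and 12 are knockout at P18, numbered as in the table columns, and values below are given in that order. The labels give the genotype as KO, with no allele, strain or mating, and the tissue as testis. Wild-type testes of the same ages, libraries 1, 2 and 3 at P14 and 7, 8 and 9 at P18, served to show what the same interval looks like with D1PAS1 present. The labels do not say that the libraries of a group came from separate animals, so p-values measure the spread between these libraries, which may be technical.

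The protein D1PAS1, a DEAD-box helicase made in male germ cells, is encoded by an intronless autosomal copy of the X-linked gene Ddx3x. In the first wave of spermatogenesis germ cells advance almost in step, so the interval between these ages is when spermatocytes leave early meiotic prophase and fill the testis as pachytene cells. Spermatocytes assemble the synaptonemal complex, and as pachytene cells they finish recombination, silence the sex chromosomes, transcribe long piRNA precursors and switch on genes for metabolism, flagellum and acrosome that are used after meiosis, a switch in which the transcription factors A-MYB (Mybl1), TCFL5 and RFX2 take part. The question addressed was which of these steps still started between P14 and P18 without D1PAS1.

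Library depth and composition were examined first. Summed estimated counts, in units of 1e6, ran from 21.8 to 30.4 in the knockout at P14 and from 16.7 to 19.2 at P18. Levels are given as CPM, estimated counts relative to a library total scaled by the trimmed mean of M-values (TMM), which are not corrected for gene length and so are compared between libraries and not between genes. D1Pas1 (chromosome 1, 186967416 to 186970627, GRCm38) stood at 16.1, 15.6 and 13.0 CPM at P14 and 15.6, 24.3 and 22.4 CPM at P18 in the knockout, and at 30.8, 43.7 and 34.8 CPM at P14 and 59.0, 82.3 and 135 CPM at P18 in wild type. The knockout libraries lay below the wild-type libraries of the same age without overlap, and the labels do not say which part of the gene the knockout removes. Reads shared with the near-identical copies Ddx3x and Ddx3y could be split by the counting, so the remaining level is uncertain. On the first principal component, which held 66.8% of the variance, the knockout moved from between -53.3 and -49.9 at P14 to between -10.3 and 10.5 at P18, while wild type at P18 lay between 88.1 and 97.8. In wild type at P14, library 2 stood apart at -24.8, against -55.1 and -48.1 for the other two. The labels name male germ cells, yet Sertoli cell genes were present in every library: Sox9 stood at 240.0, 236 and 242 CPM at P14 and 187, 186 and 192 CPM at P18 in the knockout. Each age was deposited as its own table, so in the knockout alone age and table cannot be told apart, whereas a shift common to both genotypes drops out of the test of whether the knockout change differs from the wild-type change.

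Genes of some cell types other than germ cells also differed between the ages. Genes of the epididymal epithelium, a list chosen after their values were seen, summed to 256, 267 and 138 CPM at P14 and 27.7, 30.03 and 28.4 CPM at P18 in the knockout. In wild type the same sum ran from 36.8 to 98.7 CPM at P14 and from 31.6 to 158 CPM at P18, the highest in library 8. Of 22 tested genes of peritubular myoid and smooth muscle cells, 14 fell in the knockout and none rose, with a median log2 change of -0.63. In wild type 3 fell and none rose, with a median of -0.27, and a lower knockout change was called for 2 of 22. Their sum at P14 was 4465, 4048 and 3692 CPM in the knockout and 3257 to 3649 CPM in wild type. In the knockout Acta2, smooth muscle actin, went from 291, 319 and 295 CPM at P14 to 187, 175 and 201 CPM at P18, a fall of 0.68 ± 0.08 (SE) on the log2 scale, and Myh11, smooth muscle myosin, fell by 0.89 ± 0.10 (edgeR adjusted p = 0.00113 and 0.00115). Sertoli genes had 2 of 33 higher, 4 lower and a median of -0.14, and 0 higher and 8 lower with library totals alone. Leydig genes had 6 of 29 higher and 3 lower, which turned to 3 higher and 7 lower with library totals alone. Over all genes tested 14.5% were higher and 9.94% lower. The 4 of 33 Sertoli and 3 of 29 Leydig genes called lower are near that share and show no change of either list. In bulk tissue, fewer cells of a type and less RNA per cell cannot be told apart, and the part these shifts have in the germ-cell results was not tested.

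**Figure D1:**
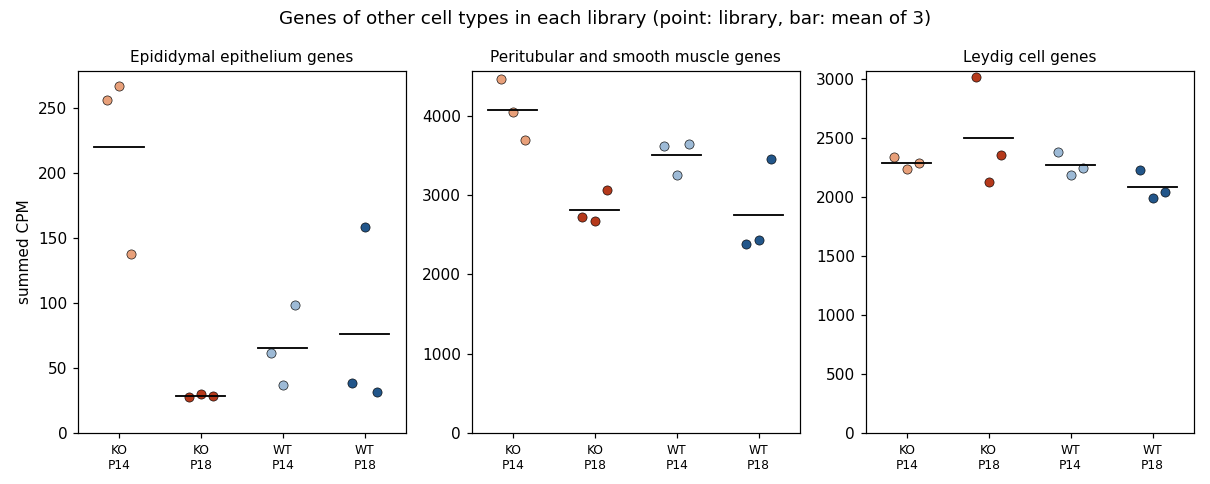
Summed CPM (vertical axis, from 0) of 28 epididymal epithelium genes, 22 peritubular and smooth muscle genes and 32 Leydig cell genes in each library of the 4 groups, points being libraries and bars the mean of 3. The knockout P14 libraries lie at 138 CPM or more in the first panel and the knockout P18 libraries at 30.03 or less, while the Leydig sums overlap.

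More genes rose than fell in the knockout between P14 and P18 with TMM scaling, and fewer with library totals alone. Of 15724 genes tested, 2284 were higher at P18 (14.5%) and 1563 lower (9.94%) at an adjusted p under 0.05 (edgeR quasi-likelihood test, Benjamini-Hochberg). At least 2-fold changes were rarer, 668 higher (4.25%) and 192 lower (1.22%), and 154 genes rose (0.979%) and 66 fell (0.42%) at least 4-fold. Gene models with predicted or clone names made up 313 of the genes called higher. Over the same interval wild type had 4108 genes higher (25.7%) and 2796 lower (17.5%) of 16002, which became 3255 higher and 5115 lower with library totals alone. Its lower genes numbered 1586, 1477 and 1778 without wild-type library 1, 3 or 8. The change itself differed between the genotypes for 2279 of 16355 genes (13.9%), 1838 with a lower (11.2%) and 441 with a higher change in the knockout (2.70%). The knockout count fell to 2120, 2201, 2193 and 2479 genes without library 4, 5, 6 or 12, and scaling by library totals alone gave 1878 higher and 2413 lower, so that the share of higher genes among those called went from 59.4% to 43.8%. Groups did not overlap for 21.9% of all tested genes in the higher and 21.6% in the lower direction, so a lack of overlap by itself is common. The count of genes whose change differed fell to 1501 without wild-type library 1 and 1490 without wild-type library 3. The 441 with a higher change ran from 164 without wild-type library 3 to 959 without wild-type library 9, and were 1212 with library totals alone.

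Some genes of meiotic entry fell and fewer rose. Of 15 tested genes of meiotic entry and the preleptotene stage, 6 fell and 3 rose, where 9.94% of all genes tested were lower and 14.5% higher. The median log2 change was -0.14 against -0.01 over all genes tested. Stra8, the retinoic-acid-induced switch into meiosis, was at 70.2, 66.5 and 66.3 CPM at P14 and 43.7, 45.0 and 56.6 CPM at P18, every P18 library below every P14 library. Its log2 change was -0.48 ± 0.10 (SE), adjusted p = 0.0126, and 0.0519 without library 4. Hells, a chromatin remodeller, fell by 0.41 ± 0.07 (adjusted p = 0.00456). Tex101, a germ-cell surface protein, rose from 503, 523 and 459 CPM at P14 to 651, 764 and 815 CPM at P18 (log2 change 0.59 ± 0.10, adjusted p = 0.00451), and Meioc, listed under the older name Gm1564 and needed to hold germ cells in meiosis, rose by 0.68 ± 0.12 (adjusted p = 0.00668). Wild type changed by -0.79 for Stra8, -0.60 for Hells and 0.70 for Tex101. The test of the difference between the genotypes passed for 0 of the 15 genes (adjusted p = 0.145 for Stra8), against 13.9% of all genes.

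The machinery that makes meiotic double-strand breaks had 4 of 12 tested genes lower and 1 higher in the knockout, with a median of -0.28. Prdm9, the histone methyltransferase that places the breaks, went from 20.8, 18.7 and 20.8 CPM at P14 to 12.8, 14.0 and 12.9 CPM at P18 with no overlap between the ages. That was a log2 change of -0.61 ± 0.09 (adjusted p = 0.00358), beside -0.74 in wild type. Zcwpw1, a reader of the PRDM9 mark, fell by 0.48 ± 0.08 and Tex15, needed for break repair and transposon silencing, fell by 0.34 ± 0.07 (adjusted p = 0.00462 and 0.00879). Spo11, the enzyme that cuts the DNA, stood at 20.8, 22.5 and 18.6 CPM at P14 and 24.3, 37.6 and 26.6 CPM at P18, every P18 library above every P14 library, and missed the threshold (log2 change 0.52 ± 0.16, adjusted p = 0.0513). Without library 10 its adjusted p was 0.0139.

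Synaptonemal complex and meiotic cohesin genes changed little. Of 17 tested, 4 rose and none fell, with a median of 0.02, or -0.05 with 1 lower under scaling by library totals. Sycp3, the lateral element of the complex, was at 246, 228 and 227 CPM at P14 and 274, 187 and 248 CPM at P18, with overlapping ages (log2 change 0.02 ± 0.13, adjusted p = 0.928). Sycp1, the transverse filament, had a log2 change of -0.12 ± 0.13 (adjusted p = 0.561). Hormad1, the axis protein that watches over synapsis, rose from 235, 228 and 223 CPM at P14 to 311, 358 and 356 CPM at P18, and all P18 libraries were higher. Its change of 0.58 ± 0.07 (adjusted p = 0.00166) stood beside 0.62 in wild type, a difference of -0.02 (adjusted p = 0.949). Hormad2 rose by 0.55 ± 0.08 (adjusted p = 0.00235).

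Several genes of crossover formation rose. Among 31 tested recombination and crossover genes, 12 rose and 1 fell, and the median log2 change was 0.10, against 0.47 for the list in wild type. Dmc1, the recombinase that invades the homologous chromosome, was at 84.4, 87.0 and 74.7 CPM at P14 and 86.1, 72.7 and 79.3 CPM at P18 and did not pass (adjusted p = 0.738). Cntd1, which turns recombination sites into crossovers, went from 105, 102 and 98.1 CPM at P14 to 207, 212 and 244 CPM at P18, with no overlap (log2 change 1.12 ± 0.08, adjusted p = 0.000233). Mlh3, the endonuclease of crossover resolution, rose from 42.4, 41.9 and 42.9 CPM at P14 to 61.3, 75.3 and 69.2 CPM at P18 (log2 change 0.70 ± 0.08, adjusted p = 0.00137). Msh4, which stabilises recombination intermediates, rose by 0.78 ± 0.08, beside 0.73 in wild type (adjusted p = 0.000671 in the knockout). Of 10 tested genes of meiotic telomere attachment, 4 rose and 1 fell: Spdya, the CDK2 activator at telomeres, rose by 0.76 ± 0.08, and Terf1, a telomere repeat-binding protein, fell by 0.66 ± 0.12 (adjusted p = 0.000777 and 0.00687).

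**Figure D2:**
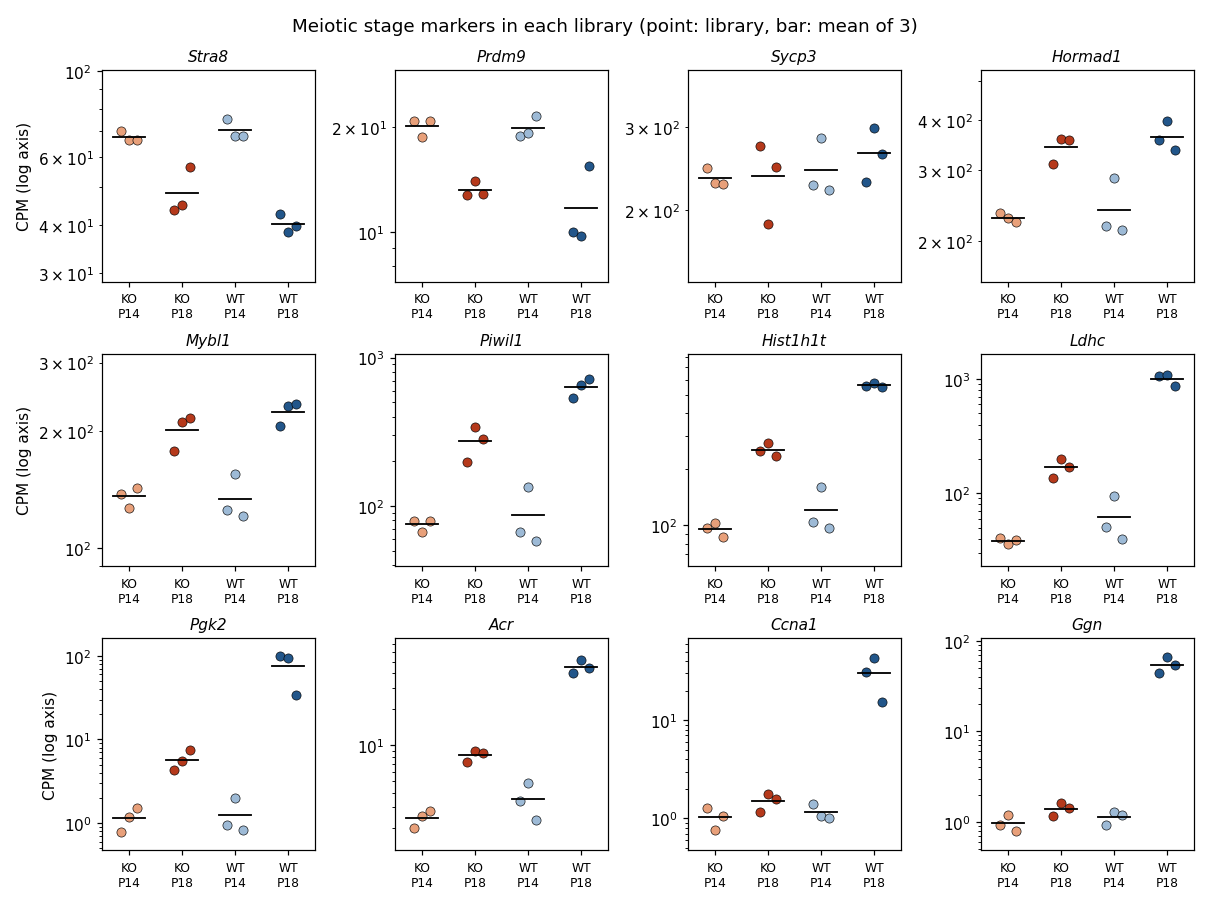
CPM on log axes for 12 stage markers in each library of the knockout (KO) and wild-type (WT) groups at P14 and P18, points being libraries and bars the mean of 3. Sycp3 is level, Hormad1, Mybl1 and Piwil1 rise in both genotypes, and Ccna1 and Ggn stay below 2 CPM in every knockout library while wild type at P18 is at 15.4 CPM or more.

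Several transcription regulators of the pachytene programme rose without D1PAS1. Of 24 tested, 13 rose and 4 fell (median 0.36, and 0.77 in wild type). Mybl1, which encodes A-MYB, went from 137, 127 and 143 CPM at P14 to 177, 211 and 216 CPM at P18, all P18 libraries above all P14 libraries. The log2 change was 0.57 ± 0.09 (adjusted p = 0.00358) and that of wild type 0.76, with a difference of -0.18 (adjusted p = 0.495). Tcfl5, which acts with A-MYB, rose from 87.7, 83.0 and 86.0 CPM at P14 to 132, 177 and 147 CPM at P18 (log2 change 0.83 ± 0.10, adjusted p = 0.00161). Rfx2, a regulator of ciliary and flagellar genes, stood at 49.0, 43.7 and 41.4 CPM at P14 and 81.2, 113 and 125 CPM at P18, a rise of 1.25 ± 0.15 against 1.88 in wild type (adjusted p = 0.00138 for the knockout and 0.136 for the difference). Crem, an activator of spermatid genes, rose by 0.90 ± 0.12 (adjusted p = 0.00198), and Sohlh2, a regulator of differentiating spermatogonia, rose by 0.70 ± 0.09 (adjusted p = 0.00207) beside 0.06 in wild type. Pou5f2, a germ-cell POU factor, was at 0.0315, 0.843 and 0.617 CPM at P14 and 0.411, 1.02 and 0.211 CPM at P18 in the knockout and at 0.249, 0.152 and 0.182 CPM at P14 and 33.5, 33.6 and 23.4 CPM at P18 in wild type. The knockout ages overlapped (log2 change 0.23 ± 0.86, adjusted p = 0.869), and the difference from the wild-type change was -6.99 (adjusted p = 0.000752).

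Many genes of the piRNA pathway rose. piRNAs are short RNAs, bound by PIWI proteins, that silence transposons and, in pachytene cells, are cut from long precursor transcripts. Of 31 tested pathway genes, 21 rose and 1 fell in the knockout, with a median log2 change of 0.43, and 23 rose in wild type with a median of 0.88. The 21 became 15 without library 4 or 6 and 18 with library totals alone. Piwil1 (chromosome 5, 128736071 to 128755474), the PIWI protein of pachytene cells, went from 79.9, 67.0 and 79.3 CPM at P14 to 197, 343 and 283 CPM at P18 with no overlap, library 10 being the lowest at P18. Its log2 change was 1.87 ± 0.18 (adjusted p = 0.000655), beside 2.89 in wild type, and the difference of -1.01 did not pass (adjusted p = 0.114), though it did without wild-type library 2 (adjusted p = 0.00343). Tdrd5, which routes precursors to processing granules, rose from 77.5, 72.4 and 76.2 CPM at P14 to 148, 194 and 207 CPM at P18 (log2 change 1.29 ± 0.12, adjusted p = 0.000555). Pld6, the nuclease that cuts piRNA 5′ ends, rose from 32.6, 31.9 and 34.6 CPM at P14 to 55.9, 68.7 and 67.2 CPM at P18, a change of 0.96 ± 0.09 against 2.27 in wild type. Its smaller rise passed the test of the difference (-1.30, adjusted p = 0.00114). Ddx4, the germ-cell helicase VASA, rose by 0.53 ± 0.08, and Tdrd12 by 0.92 ± 0.10 (adjusted p = 0.00276 and 0.00111).

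The tables also hold piRNA precursor transcripts, named in the files by chromosome band (intergenic) or by a gene (genic), sets formed from those name patterns after the files were read. Of 101 intergenic precursors 99 were tested in the knockout, of which 84 rose and 1 fell, with a median log2 change of 1.49. Their summed level was 5307, 5650 and 5449 CPM at P14 and 8262, 17777 and 12065 CPM at P18. All P18 libraries were higher, but they differed among themselves, library 11 being the highest and library 10 the lowest. In wild type 97 of 100 rose, with a median of 2.77, to sums of 23119 to 33808 CPM. A lower change in the knockout passed for 32 of 100, which became 85 without wild-type library 2, 59 without library 11, and 14 to 20 without library 4, 5, 6, 10 or 12, or wild-type library 1 or 3. The precursor named 7-qF3-3125 went from 23.7, 23.1 and 25.6 CPM at P14 to 59.3, 96.6 and 84.2 CPM at P18 (log2 change 1.73 ± 0.16, adjusted p = 0.000575) and 4-qB3-3994 from 32.8, 30.8 and 30.4 CPM at P14 to 86.3, 167 and 139 CPM at P18 (2.06 ± 0.21, adjusted p = 0.000785). Genic precursors showed no such shift, with 13 of 114 higher, 10 lower (19 with library totals alone) and a median of -0.01. The shares over all genes tested in the knockout were 14.5% higher and 9.94% lower. In wild type 28 of 114 genic precursors were higher and 28 lower, with a median of -0.10. There, 25.7% of all genes tested were higher and 17.5% lower. Reads that genic precursors share with their host genes cannot be told apart.

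**Figure D3:**
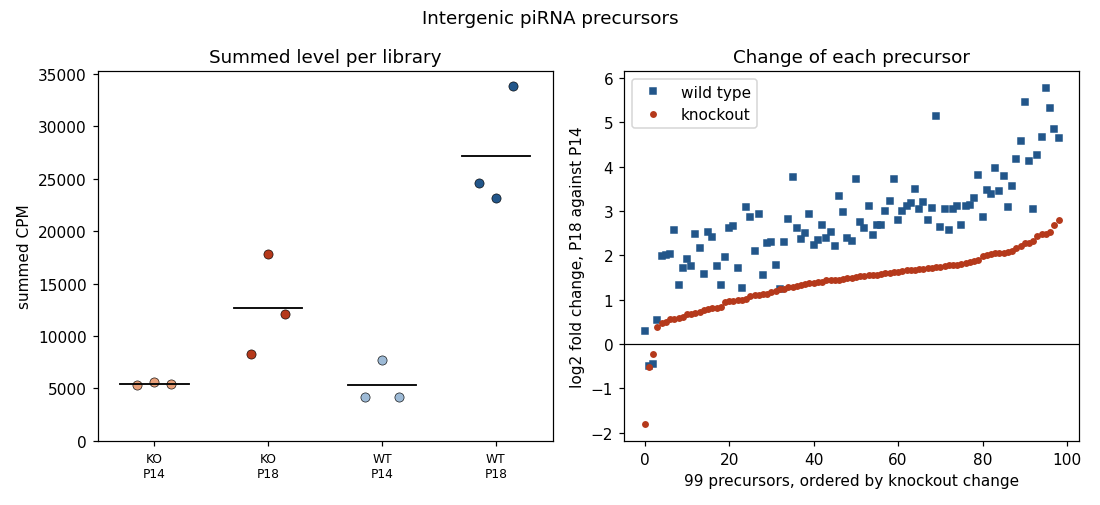
Left, summed CPM (from 0) of 101 intergenic piRNA precursors in each library, with the mean of 3 as a bar; right, the log2 change of each of 99 precursors in the knockout and in wild type, ordered by the knockout change. The knockout sums at P18 run from 8262 to 17777 CPM and those of wild type from 23119 to 33808 CPM.

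Genes that pachytene spermatocytes switch on for later use rose for the most part in the knockout. Of 42 tested pachytene effector genes 35 rose and none fell, and the median log2 change was 1.23 against 2.81 in wild type. For 32 of 42 the knockout change was lower than the wild-type change by the test of the difference, whether or not the gene had passed as higher in the knockout. Hist1h1t, the testis linker histone that marks mid-pachytene, went from 96.5, 103 and 86.8 CPM at P14 to 250.4, 274 and 235 CPM at P18 with no overlap, a log2 change of 1.41 ± 0.09 (adjusted p = 0.000194) beside 2.24. Hspa2, a chaperone of the synaptonemal complex, rose from 311, 255 and 276 CPM at P14 to 497, 584 and 589 CPM at P18, a change of 0.99 ± 0.10 (adjusted p = 0.000671). Spink2, an inhibitor of acrosomal proteases, rose from 3.28, 3.29 and 3.17 CPM at P14 to 13.0, 15.5 and 17.4 CPM at P18 (log2 change 2.24 ± 0.14, adjusted p = 0.000194), and wild type rose by 4.66. Ybx2, which stores mRNA in germ cells, rose by 1.37 ± 0.14, -1.35 against the wild-type change (adjusted p = 0.000853 and 0.00736), and Ybx3 by 1.07 ± 0.12, a difference of -1.70 (adjusted p = 0.00120 and 0.000370).

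All 17 tested metabolic isoforms of germ cells rose (16 of 17 with library totals alone), with a median of 1.51 against 3.66 in wild type. These genes replace their widely expressed relatives in spermatocytes and sperm. Ldhc, the germ-cell lactate dehydrogenase, stood at 40.8, 35.6 and 39.0 CPM at P14 and 136, 202 and 168 CPM at P18 in the knockout and at 50.5, 94.6 and 39.8 CPM at P14 and 1057, 1079 and 875 CPM at P18 in wild type. The knockout change was 2.13 ± 0.14 (adjusted p = 0.000194), smaller than that of wild type by -1.89 (adjusted p = 0.00430). Pgk2, the germ-cell phosphoglycerate kinase, reached 0.788, 1.18 and 1.498 CPM at P14 and 4.35, 5.47 and 7.44 CPM at P18 in the knockout and 0.961, 1.97 and 0.835 CPM at P14 and 98.3, 93.5 and 34.3 CPM at P18 in wild type. Both genotypes rose, the knockout by 2.34 ± 0.29 and wild type by 5.93 (difference -3.56, adjusted p = 0.00422). Pdha2, a pyruvate dehydrogenase subunit copied from the X chromosome, went from 53.1, 47.7 and 51.0 CPM at P14 to 111, 121 and 119 CPM at P18, a change of 1.21 ± 0.07 beside 1.88 (adjusted p = 0.000194). Of 15 tested autosomal retrogenes with X-linked parents, which include Pgk2 and Pdha2, 12 rose and none fell; Rpl10l, a ribosomal protein copy that stands in for silenced Rpl10, went from 97.0, 95.2 and 94.4 CPM at P14 to 192, 195 and 199 CPM at P18 (1.03 ± 0.06, adjusted p = 0.000194).

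Genes of the meiotic divisions split. Of 40 tested, 14 rose and 4 fell with a median of 0.12, and without library 4 the rises numbered 9. With library totals alone 13 rose and 10 fell. Bub3, of the spindle checkpoint, rose by 0.57 ± 0.06 and Cks2, a cyclin-dependent kinase subunit, by 0.66 ± 0.08 (adjusted p = 0.00101 and 0.00116), beside 0.62 and 0.98 in wild type. Meikin, which holds sister kinetochores together, rose from 7.15, 5.90 and 5.24 CPM at P14 to 13.9, 13.5 and 14.4 CPM at P18 (log2 change 1.18 ± 0.14, adjusted p = 0.00117). Aurka, a spindle pole kinase, rose by 0.59 ± 0.07, less than in wild type (-0.91, adjusted p = 0.00241). Ccna1 (chromosome 3, 55045469 to 55057634), the cyclin A of late pachytene and diplotene cells, was at 1.29, 0.759 and 1.06 CPM at P14 and 1.18, 1.77 and 1.58 CPM at P18 in the knockout, where the ages overlapped, and at 1.39, 1.06 and 1.02 CPM at P14 and 31.2, 43.1 and 15.4 CPM at P18 in wild type. The knockout change of 0.53 ± 0.28 did not pass (adjusted p = 0.201), wild type rose by 4.70, and the difference was -4.16 (adjusted p = 0.000448).

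Axoneme and cilia genes, which build the sperm tail, also rose for the most part. Of 81 matched genes 69 passed the filter on low counts, and 50 of these rose and none fell, with a median of 0.91. In wild type 70 of 77 rose with a median of 3.03, and the knockout change was lower than that of wild type for 64 of 77, genes with no called knockout rise included. Zmynd10, a dynein assembly factor, went from 14.9, 11.9 and 12.8 CPM at P14 to 41.4, 53.5 and 50.5 CPM at P18 with no overlap (log2 change 1.88 ± 0.13, adjusted p = 0.000204), beside 15.7, 26.8 and 12.1 CPM at P14 and 178, 205 and 172 CPM at P18 in wild type. Ropn1l, a fibrous sheath and radial spoke protein, rose from 24.0, 20.7 and 26.1 CPM at P14 to 55.3, 56.5 and 52.4 CPM at P18, a change of 1.22 ± 0.09 with a difference from wild type of -1.81 (adjusted p = 0.000284 and 0.00378). Dnah8, a dynein heavy chain of the sperm tail, went from 103, 77.8 and 100.3 CPM at P14 to 358, 301 and 539 CPM at P18 (log2 change 2.09 ± 0.21, adjusted p = 0.000787).

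Acrosome genes followed the same course. Of 57 matched acrosome and sperm surface genes 28 were tested, and 20 rose and 1 fell. The 1 that fell was Crisp1, which is also on the epididymal list above. Acr, Adam2, Dkkl1, Spink2 and Zpbp2 are also on the pachytene effector list. So are Ropn1l of the axoneme list and Ldhc and Pdha2 of the metabolic list. The counts of these lists are therefore not separate results. Dkkl1, an acrosomal protein, went from 13.7, 14.4 and 14.3 CPM at P14 to 45.7, 62.3 and 60.3 CPM at P18 (log2 change 1.99 ± 0.12, adjusted p = 0.000194), and Acr, the acrosomal protease, from 2.02, 2.53 and 2.82 CPM at P14 to 7.23, 8.96 and 8.54 CPM at P18 (1.76 ± 0.18, adjusted p = 0.000746), both with no overlap. Wild type rose by 3.82 and 3.69, and the differences of -1.81 and -1.92 passed (adjusted p = 0.00686 and 0.00175). Adam2, a sperm surface protein of the egg-binding complex, rose by 1.82 ± 0.13, and Zpbp2, an acrosome matrix protein, by 1.94 ± 0.19 (adjusted p = 0.000242 and 0.000655). Few spermatid genes had enough counts to test, 23 of 51 round spermatid genes and 12 of 36 elongating spermatid genes. Of these, 14 and 8 rose and 1 and 0 fell, where 14.5% of all genes tested were higher and 9.94% lower. The filter kept a gene with enough counts at either age alone, so genes with few counts at P14 were tested only if higher at P18. This favours rises in the spermatid, acrosome and axoneme lists, so their counts are a description. Acrv1, Tnp1 and Prm1, which mark spermatids, were not tested, with 5, 5 and 0 counts over the P14 and 7, 2 and 0 over the P18 knockout libraries.

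**Figure D4:**
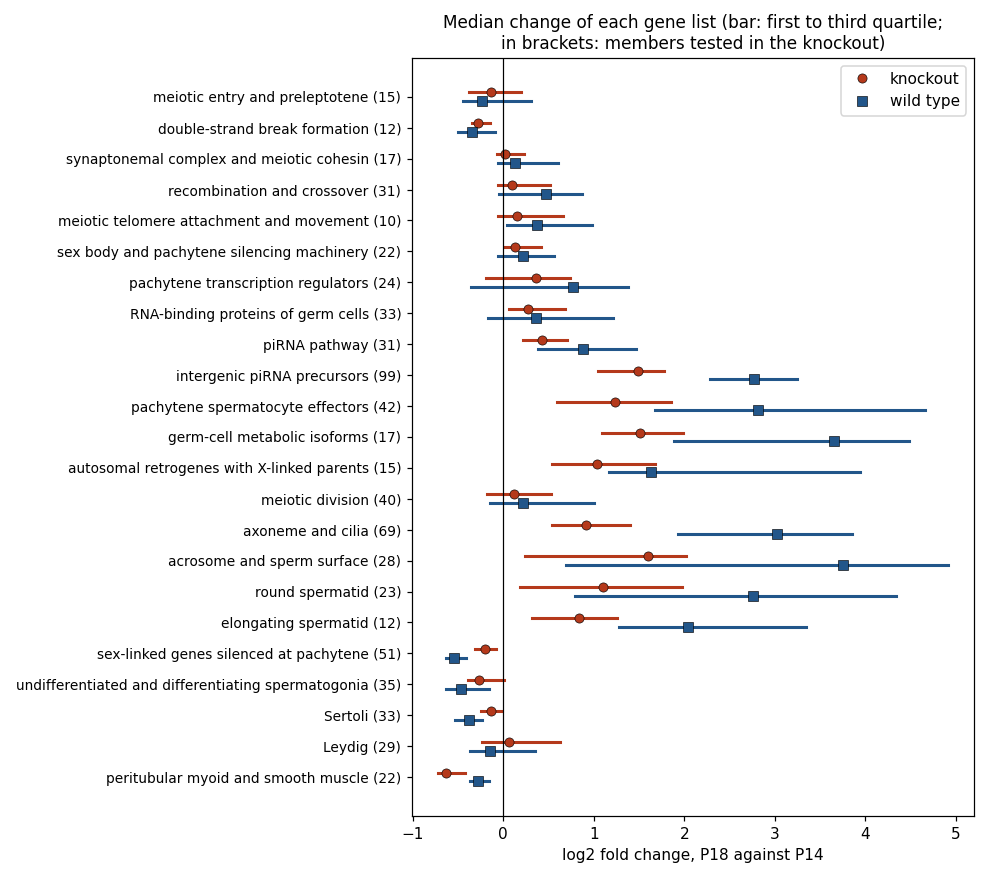
Median log2 change from P14 to P18 (horizontal axis) of each gene list in the knockout (circles) and in wild type (squares), with bars from the first to the third quartile; members tested in the knockout are in brackets. The lists from meiotic entry to telomere attachment have medians of -0.28 to 0.15 in the knockout and -0.35 to 0.47 in wild type. The pachytene effector, metabolic, axoneme and acrosome lists have knockout medians of 0.91 to 1.60 and wild-type medians of 2.81 to 3.75.

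A share of sex-linked genes fell in the knockout. In pachytene cells the X and Y chromosomes are gathered in the sex body and shut down. Of 651 tested X-linked genes 132 were lower and 22 higher in the knockout, with a median of -0.19; wild type had 321 of 644 lower and 10 higher, with a median of -0.43. The knockout change was higher than that of wild type for 81 of 664 and lower for 2, where over all genes 2.70% were higher and 11.2% lower. The median difference was 0.25 for X-linked genes, beside 0.27 for 33 Sertoli genes and 0.27 for 32 replication-dependent histone genes. A higher knockout change was called for only 1 of these Sertoli genes and 2 of these histone genes. Sertoli genes had 19 of 33 lower in wild type and 4 in the knockout, and the part of such a shift in the sex-linked values was not tested. Over all 1062 X-linked genes in the tables the sum went from 30598 to 31275 CPM at P14 to 27340 to 27967 CPM at P18 in the knockout, and to 22575 to 22686 CPM at P18 in wild type. Of 16 tested Y-linked genes, 1 was higher and 1 lower in the knockout (median -0.09), against 9 lower in wild type (median -0.90). Their difference was called higher for 5 of 17, with a median of 0.78. In a list of 51 genes known to be silenced, 15 fell and 1 rose, against 42 lower in wild type, and the difference was called higher for 17. That 15 became 7, 9 and 9 without library 4, 5 or 6, and 26 with library totals alone. Ddx3x, the X-linked parent of D1Pas1, went from 245, 253 and 255 CPM at P14 to 208, 191 and 186 CPM at P18, a fall of 0.36 ± 0.07 (adjusted p = 0.00683) beside -0.57 in wild type. Scml2, a Polycomb protein of germ cells, fell by 0.37 ± 0.07, less than in wild type by 0.51 (adjusted p = 0.00745 and 0.00952). Zfy2, a Y-linked zinc finger gene whose silencing is needed to pass mid-pachytene, was at 26.1, 22.5 and 19.4 CPM at P14 and 35.7, 25.7 and 40.7 CPM at P18 in the knockout, where library 11 at P18 lay below library 4 at P14, and 24.4, 26.5 and 24.4 CPM at P14 and 16.02, 14.0 and 9.08 CPM at P18 in wild type. Its knockout change of 0.59 ± 0.17 passed narrowly (adjusted p = 0.0424) and was lost without library 4, 5, 6, 10 or 12 (adjusted p from 0.0582 to 0.139) and with library totals alone (adjusted p = 0.0530), whereas wild type changed by -0.93 and the difference was 1.54 (adjusted p = 0.00382). Tsga8, an X-linked gene of spermatids, rose from 1.99, 3.12 and 3.66 CPM at P14 to 20.7, 28.3 and 30.8 CPM at P18 (3.21 ± 0.24, adjusted p = 0.000278), beside a change of 3.21 in wild type, where levels were 0.605, 1.33 and 0.508 CPM at P14 and 7.31, 11.8 and 3.31 CPM at P18.

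The wild-type libraries, which share none with the knockout comparison, were used to define which genes start in this interval. Age and table go together in both genotypes, so a shift between tables could raise the same genes in both, which was not tested. In wild type 1829 genes rose at least 2-fold at an average log2 CPM of at least 0. In the knockout 1086 of these rose (59.4%, against 14.5% of all genes tested), 589 did not pass, 5 fell and 149 had too few counts to test. The 1086 became 833 (45.5%), 835 and 837 without library 4, 5 or 6. Without library 12 the count was 862, and without library 10 it was 1209 (66.1%). The knockout log2 change had a median of 38.3% of the wild-type change over the 1680 tested, with quartiles of 23.9% and 51.4%. By list, that median was 59.1% for 6 recombination genes, 57.0% for 9 transcription regulators, 55.1% for 12 piRNA pathway genes, 53.2% for 96 intergenic precursors, 42.3% for 36 pachytene effectors and 35.6% for 66 axoneme genes. The gene numbers count all wild-type risers of a list, while each median leaves out members not tested in the knockout. The 149 genes not tested had a median wild-type log2 change of 4.99, so these medians do not cover them. These shares were not tested against each other. Choosing genes by their wild-type rise can overstate that rise and so lower the percentages, which are a description.

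These genes were sorted into 3 main classes by both tests. In the first, 351 genes rose in the knockout and the difference from wild type was not called, which does not show that the rises were equal: the median log2 change was 1.18 in the knockout and 1.79 in wild type, and the class held 229 genes without wild-type library 2. In the second, 735 rose with a smaller rise than in wild type (medians 0.98 and 2.46), and 423, 461 and 439 without library 4, 5 or 6. In the third, 404 did not pass in the knockout and had a smaller change than wild type (medians 0.23 and 1.73). That class held 316 genes without library 10 and 535 without library 11. The test of the difference shares the wild-type libraries with the choice of the genes, so its counts are a description. The first class held Aqp8, a water channel, at 5.23, 7.67 and 4.45 CPM at P14 and 59.6, 40.3 and 25.9 CPM at P18 in the knockout and 4.74, 7.39 and 4.61 CPM at P14 and 42.4, 45.2 and 14.4 CPM at P18 in wild type. The second held Adam3, a sperm protein needed for migration to the egg, at 0.378, 0.295 and 0.353 CPM at P14 and 1.94, 4.56 and 2.53 CPM at P18 in the knockout, while wild type stood at 0.748, 1.90 and 0.472 CPM at P14 and 110.5, 143 and 83.4 CPM at P18. Its changes were 3.11 ± 0.39 and 6.78 (difference -3.65, adjusted p = 0.0122, and 0.0649 without library 4).

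The third class is shown by genes with large wild-type rises that did not pass in the knockout. Ggn, a gametogenetin of spermatids, was at 0.914, 1.18 and 0.793 CPM at P14 and 1.18, 1.61 and 1.42 CPM at P18 in the knockout and 0.926, 1.29 and 1.198 CPM at P14 and 44.0, 65.9 and 53.9 CPM at P18 in wild type, so that no knockout library passed 2 CPM while wild type at P18 was above 40 CPM. Its difference of -5.03 had an adjusted p of 1.43e-05. Comp, a matrix protein, was at 0.599, 0.590 and 0.441 CPM at P14 and 0.823, 0.912 and 0.844 CPM at P18 in the knockout, beside 0.498, 0.796 and 0.617 CPM at P14 and 19.7, 28.0 and 16.4 CPM at P18 in wild type (difference -4.41, adjusted p = 7.69e-05). Ccdc42, needed for the sperm head-tail junction, stood at 0.662, 0.169 and 0.264 CPM at P14 and 0.411, 0.965 and 0.527 CPM at P18 in the knockout, with overlapping ages, and differed by -4.12 (adjusted p = 0.00186). Aqp9, a channel for water and glycerol, was at 1.70, 2.53 and 1.32 CPM at P14 and 2.59, 3.70 and 2.80 CPM at P18 in the knockout and rose by 4.78 in wild type (difference -4.05, adjusted p = 0.000851). For Comp and Aqp9 every knockout P18 library lay above every knockout P14 library, but neither change passed (edgeR adjusted p = 0.119 and 0.0941). Rasl2-9, a RAN-like GTPase copy, differed by -4.61 (adjusted p = 0.00226).

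**Figure D5:**
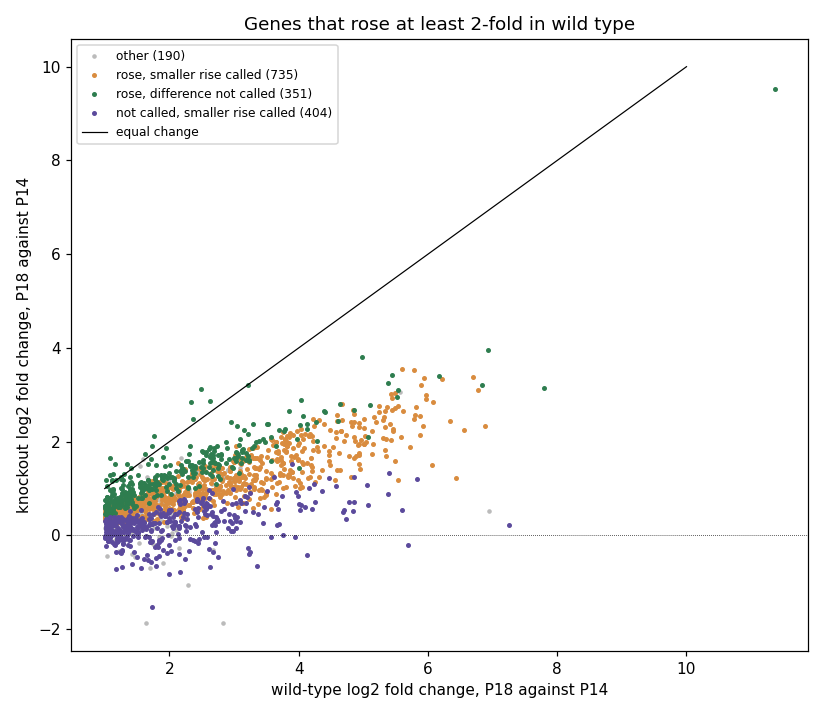
Log2 change from P14 to P18 in wild type (horizontal axis) and in the knockout (vertical axis) for 1680 genes that rose at least 2-fold in wild type and were tested in the knockout, coloured by class, with a line of equal change. Most points lie between 0 and the line, and the 404 genes of the third class have a median knockout change of 0.23.

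Promoters were printed for 5 genes to show what the start of a gene looks like in each class: Cntd1 and Rfx2 (rose, difference not called), Ropn1l and Pgk2 (smaller rise) and Pou5f2 (no rise). Each sequence is the 250 bases before the start in RefSeq, build GRCm38.p6, read 5′ to 3′ along the strand of the gene, with capitals marking matches on either strand to AACNGNC (MYB-like), GTTGCC (an RFX half-site), TGACGT (a CRE half-site) or CACGTG (an E-box).
Cntd1, chr11:101278953-101279202, plus strand: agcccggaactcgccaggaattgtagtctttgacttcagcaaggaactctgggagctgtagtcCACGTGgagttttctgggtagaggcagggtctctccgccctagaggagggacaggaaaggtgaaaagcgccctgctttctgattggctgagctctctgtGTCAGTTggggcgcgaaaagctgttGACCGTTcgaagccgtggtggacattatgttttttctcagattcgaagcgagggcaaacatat
Rfx2, chr17:56831009-56831258, minus strand: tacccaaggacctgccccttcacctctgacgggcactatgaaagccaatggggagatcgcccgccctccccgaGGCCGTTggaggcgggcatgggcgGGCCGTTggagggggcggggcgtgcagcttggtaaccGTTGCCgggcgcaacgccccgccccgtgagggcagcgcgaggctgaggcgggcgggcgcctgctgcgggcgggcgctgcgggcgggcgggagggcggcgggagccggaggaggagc
Ropn1l, chr15:31453690-31453939, minus strand: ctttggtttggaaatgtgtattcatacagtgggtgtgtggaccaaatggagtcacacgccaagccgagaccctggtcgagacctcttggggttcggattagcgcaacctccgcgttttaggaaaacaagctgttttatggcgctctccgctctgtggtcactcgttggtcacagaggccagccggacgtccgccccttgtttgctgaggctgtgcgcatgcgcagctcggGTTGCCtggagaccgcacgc
Pgk2, chr17:40208610-40208859, minus strand: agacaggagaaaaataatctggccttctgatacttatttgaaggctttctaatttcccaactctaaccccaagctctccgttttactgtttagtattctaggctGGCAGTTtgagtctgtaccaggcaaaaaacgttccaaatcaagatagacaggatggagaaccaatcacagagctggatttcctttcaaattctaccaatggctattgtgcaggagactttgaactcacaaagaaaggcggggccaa
Pou5f2, chr13:78024652-78024901, plus strand: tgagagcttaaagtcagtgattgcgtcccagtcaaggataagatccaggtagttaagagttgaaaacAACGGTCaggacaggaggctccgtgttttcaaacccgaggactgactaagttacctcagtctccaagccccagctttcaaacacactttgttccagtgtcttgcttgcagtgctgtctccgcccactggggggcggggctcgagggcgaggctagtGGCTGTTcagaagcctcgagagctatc
Cntd1 held 2 MYB-like matches and 1 E-box, Rfx2 2 MYB-like matches and 1 RFX half-site, Ropn1l 1 RFX half-site, Pgk2 1 MYB-like match and Pou5f2 2 MYB-like matches. Over windows from 250 bases before to 50 after the start, MYB-like letters were in 33.2% of 12220 promoters of tested genes, 43.7% of 231 in the first class, 49.0% of 571 in the second and 43.8% of 317 in the third. RFX half-sites were in 12.8% of tested promoters and in 17.7%, 25.04% and 15.1% of the classes. CRE half-sites (11.2% of tested promoters) were in 7.79%, 9.63% and 10.1%, and E-boxes (10.1%) in 9.96%, 10.9% and 7.89%. Over all 27025 promoters the MYB-like share was 32.8%, the RFX share 12.7%, the CRE share 7.64% and the E-box share 7.24%. Such matches describe letters, not binding, and the shares were not tested.

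Where genes had to pass the test, to average 1 or more in log2 CPM and to show no overlap between ages, predicted models left out, the 15 largest rises in the knockout were of genes that also passed as higher in wild type. Rbakdn led with 1.70, 2.02 and 2.60 CPM at P14 and 17.4, 30.6 and 25.2 CPM at P18, a log2 change of 3.55 ± 0.25 (adjusted p = 0.000233) beside 5.60 in wild type. Cmtm2a, a chemokine-like membrane protein of the testis, went from 1.80, 1.05 and 1.498 CPM at P14 to 10.9, 21.6 and 18.7 CPM at P18 (3.54 ± 0.30, adjusted p = 0.000399). Slco6c1, a germ-cell organic anion transporter, rose by 3.35 ± 0.36, Catsperb, a subunit of the sperm calcium channel, by 2.76 ± 0.31, Pgam2, a phosphoglycerate mutase, by 2.67 ± 0.20, and Atp8b3, a phospholipid flippase of the acrosome, by 2.67 ± 0.21 (adjusted p = 0.000976, 0.00115, 0.000278 and 0.000327). Prnd, the prion-like gene doppel of testis, was at 6.49, 4.47 and 5.07 CPM at P14 and 50.4, 39.8 and 26.1 CPM at P18 in the knockout and at 5.55, 6.03 and 4.86 CPM at P14 and 30.2, 38.5 and 13.7 CPM at P18 in wild type, with all P18 libraries above all P14 libraries in both. Its changes were 2.85 ± 0.25 and 2.34, and the difference of 0.53 did not pass (adjusted p = 0.511). The others of the 15, Mroh2a, Qrich2, March11, Lrrc63, Tmbim7 and Dnah17, rose by 2.63 to 3.03, and with Tsga8 and Aqp8 above complete the set.

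By the same rule, the largest falls were of genes known from the epididymis. Crisp1, a secreted sperm-coating protein, was at 75.4, 89.9 and 39.6 CPM at P14 and 0, 0 and 0.211 CPM at P18 in the knockout, and in wild type at 10.8, 2.99 and 27.1 CPM at P14 and 1.66, 41.0 and 0 CPM at P18. Serpina1f, a serpin, had 867 counts at P14 and 0 at P18, which is at least 202-fold lower against a floor of 3 counts over the group, Defb42, a defensin, at least 189-fold, Wfdc15b at least 136-fold, Cldn8, a tight junction protein, at least 73.6-fold and Wfdc16 at least 62.7-fold. Ces5a, Ptgs2, Spink8 and Cd52 complete the 10 largest. Cd52, a glycoprotein of epididymis and lymphocytes, went from 12.7, 11.7 and 13.0 CPM at P14 to 0.705, 0.590 and 0.633 CPM at P18 (-4.27 ± 0.16, adjusted p = 4.55e-05). The epididymal sum given above, which fell from at least 138 to at most 30.03 CPM, is no separate result. Its list was chosen after the values were seen and holds Crisp1, Serpina1f, Wfdc15b, Cldn8 and Ces5a. Of 35 tested spermatogonial genes, 12 were lower and 4 higher. Sall4, a stem-cell factor, fell by 0.58 ± 0.07 and Kit, the receptor of differentiating spermatogonia, by 0.36 ± 0.06 (edgeR adjusted p = 0.00168 and 0.00385). Wild type changed by -0.79 and -0.46. Sohlh2, among the 4 higher, went from 77.7, 76.4 and 72.4 CPM at P14 to 113, 113 and 140 CPM at P18 in the knockout.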

How the data were processed

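RNA-seq of testis RNA gave estimated counts per gene, deposited by the authors as 1 table per age with 24626 genes each. Reads were trimmed with cutadapt 3.4 and mm10 was the build, per the submitters' processing notes; for the aligner, counter, annotation and strand setting, the sources used here give nothing. Tables were joined by gene name and estimated counts rounded to whole numbers. edgeR 4.0.16 (R 4.3.3; limma 3.58.1; TMM scaling, filterByExpr, quasi-likelihood F-test, Benjamini-Hochberg, threshold 0.05) compared P18 with P14 in 6 knockout libraries, in 6 wild-type libraries, and the difference of the changes in 12. The scripts were tested on simulated counts. Alternatives were DESeq2 1.42.0, other scalings and filters, a minimum 1.5-fold test and leaving out each library.

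Genes named are stage markers, the largest called rises and falls that average 1 or more in log2 CPM and do not overlap, up to 6 members of each list by knockout p-value, and the largest wild-type rises of each class, leaving out predicted models. The members and lists were chosen with earlier results of these data known. Of 24626 genes, 24290 matched RefSeq (GRCm38.p6), used for positions and promoters. Data at P28 and the small RNA, eCLIP and BisMapR samples were not analysed here.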

Additional observations from a re-analysis of the deposited data

Results flagged for a closer look

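The knockout change from P14 to P18 differed from the wild-type change, by the test of the difference itself over 12 libraries (edgeR, adjusted p under 0.05), for 441 genes with a higher and 1838 with a lower change in the knockout. Without 1 library these counts ran from 164 to 959 and from 1310 to 2145. The genes named here that passed are given with the log2 difference, knockout change minus wild-type change.

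Differences that passed without each of the 12 libraries in turn were -6.99 for Pou5f2, -5.03 for Ggn, -4.61 for Rasl2-9, -4.41 for Comp, -4.16 for Ccna1, -4.12 for Ccdc42, -4.05 for Aqp9, -3.56 for Pgk2 and -2.97 for Zpbp2. Others of this kind were -2.93 for Lrrc63, -2.85 for Slco6c1, -2.76 for Pgam2, -2.67 for Tmbim7, -2.61 for March11, -2.60 for Dnah17, -2.46 for Catsperb, -2.41 for Spink2 and -2.16 for Atp8b3. Further such differences were -1.92 for Acr, -1.89 for Ldhc, -1.81 for Dkkl1, -1.81 for Ropn1l, -1.70 for Ybx3, -1.70 for Adam2, -1.47 for Zmynd10 and -1.35 for Ybx2. The last of them were -1.30 for Pld6 and -0.91 for Aurka. 

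Lower changes that missed the threshold without at least 1 of the libraries were -10.89 for Wfdc15b, -10.55 for Serpina1f, -9.83 for Crisp1, -9.83 for Wfdc16, -8.94 for Cldn8, -7.33 for Ces5a, -4.18 for Cd52, -3.65 for Adam3 and -2.50 for Qrich2. The remaining ones were -2.44 for Mroh2a, -2.24 for Cmtm2a, -2.04 for Rbakdn, -1.75 for Dnah8, -0.86 for Spo11, -0.82 for Hist1h1t, -0.76 for Hspa2, -0.72 for Spdya and -0.61 for Tcfl5. The smallest were -0.56 for Adad2, -0.53 for Adad1 and -0.45 for Mlh3. Fitted values of the genes with counts of 0 at P18 in the knockout (Wfdc15b, Serpina1f, Wfdc16 and Cldn8) depend on the prior count and are no measure of size. Those of Crisp1 (0, 0 and 0.211 CPM at P18 in the knockout) and Ces5a (0.0588, 0.107 and 0 CPM) rest on few counts. They are no firm measure of size either.

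The change was higher in the knockout for Prame (1.69), Zfy2 (1.54), Scml2 (0.51), Pmaip1 (1.61) and Sohlh2 (0.65). Those of Pmaip1 and Sohlh2 missed the threshold without at least 1 library.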

How the results depend on the processing

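No paired analysis was possible because the columns carry running numbers instead of the replicate numbers of the titles, and the animals differ between ages. A minimum 1.5-fold test gave 506 changed genes in the knockout, 429 higher and 77 lower. Scaling by library totals gave 2413 lower genes, 26 lower genes among the 51 silenced sex-linked genes, and shifted the median of all genes to -0.08 in the knockout and -0.19 in wild type. With it the balance of called genes turned, to 1878 higher and 2413 lower in the knockout and 3255 higher and 5115 lower in wild type, as it did for Leydig genes (3 higher, 7 lower) and genic precursors (13 higher, 19 lower), and the difference had 1212 higher and 1562 lower genes. Of the genes that rose in wild type, 1802 of 3928 rose in the knockout with no fold minimum and 611 of 956 with a 4-fold minimum.

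Leaving out 1 library gave 2120 to 5374 changed knockout genes, 1413 to 3013 higher and 690 to 2361 lower, and 1490 to 3104 genes whose change differed. Of the genes that rose in wild type, 833 to 1209 rose in the knockout, 229 to 487 with no difference called and 423 to 908 by less. Another 316 to 535 did not pass in the knockout and had a smaller change. A lower change passed for 14 to 85 precursors. Higher genes of the meiotic divisions numbered 9 to 16 and lower silenced sex-linked genes 7 to 21. The cause of these shifts was not tested. With 3 libraries a group, small changes depend on single libraries, and genes with few counts were not tested.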

Other observations

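Genes of the p53 response, checkpoints and apoptosis moved little as a list in the knockout, with 4 of 32 tested higher, 4 lower (7 with library totals alone) and a median log2 change of -0.05. Pmaip1, which encodes the pro-apoptotic protein NOXA, went from 26.1, 19.8 and 14.1 CPM at P14 to 51.1, 51.8 and 65.3 CPM at P18 with no overlap (log2 change 1.48 ± 0.21, adjusted p = 0.00223, edgeR), while wild type was at 27.1, 24.4 and 21.02 CPM at P14 and 27.2, 28.3 and 11.2 CPM at P18. Cdkn1a, the p53-induced cell cycle inhibitor p21, rose from 12.4, 14.6 and 14.1 CPM at P14 to 29.0, 20.2 and 26.1 CPM at P18 (0.88 ± 0.14, adjusted p = 0.00442) beside 0.51 in wild type, and Gadd45a, a stress response gene, fell by 0.89 ± 0.14 beside -0.90 (adjusted p = 0.00375). Of 30 tested genes that process RNA-DNA hybrids, 2 rose and 4 fell, where 14.5% of all genes tested were higher and 9.94% lower; Brca1, a repair factor that also acts in the sex body, fell by 0.42 ± 0.07 (adjusted p = 0.00374).

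RNA-binding proteins of germ cells had 17 of 33 higher and 3 lower. Adad2, needed for spermatid maturation and germ-cell granules, went from 25.8, 25.7 and 25.7 CPM at P14 to 71.5, 82.7 and 72.5 CPM at P18 (1.56 ± 0.08, adjusted p = 0.000194), and its relative Adad1 rose by 0.66 ± 0.06 (adjusted p = 0.000564). Prame, an X-linked testis antigen, was at 2.11, 2.61 and 2.12 CPM at P14 and 4.82, 5.68 and 8.33 CPM at P18 in the knockout and at 1.64, 1.52 and 1.31 CPM at P14 and 1.06, 1.88 and 0.853 CPM at P18 in wild type, a change of 1.47 ± 0.24 in the knockout (adjusted p = 0.00399). Insl3, a Leydig cell hormone, stood at 130.4, 152 and 124 CPM at P14 and 431, 192 and 305 CPM at P18 with no overlap and a change of 1.19 ± 0.25 (adjusted p = 0.0118), which missed the threshold without library 4 (0.0519) or 6 (0.0517). Alas2, of haem synthesis in red blood cells, rose by 1.18 ± 0.14 (adjusted p = 0.00123). Ribosomal protein genes had 7 of 55 lower, near the 9.94% of all genes, and 0 higher.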
